A study of Mus musculus with 10 samples.

Results

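The 9 genes described here make fatty acids or direct their making: Srebf1, Fasn, Acaca, Acly, Scd1, Scd2, Elovl6, Pnpla3 and Me1. They were taken by gene symbol from a table of raw read counts with 24421 genes, and all 9 had a row. RNA came from a piece of the pancreas tail of female mice aged 12 weeks, with 1 library per mouse. The mice belong to a series on how the insulin receptor of acinar cells bears on the start of pancreatic ductal adenocarcinoma. The groups were Insr WT (Insrw/w, 3 libraries), Insr Het (Insrw/f, 1 floxed allele, 3 libraries) and Insr KO (Insrf/f, 2 floxed alleles, 4 libraries). Mice of all groups also carried Ptf1aCreER and nTnG. Ptf1aCreER is a Cre recombinase that needs tamoxifen and is under Ptf1a, which acinar cells, the makers of digestive enzymes, express, and nTnG is a reporter of recombination with nuclear fluorescent proteins. A piece of tail also holds ducts, islets, vessels, immune cells, connective tissue and fat, whose insulin receptor this Cre does not aim at. Each library is named by its group and mouse number, as in WT-2404.

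De novo lipogenesis turns surplus carbon into fat. ATP citrate lyase (Acly) cuts citrate into acetyl-CoA, acetyl-CoA carboxylase (Acaca) makes malonyl-CoA from it, and fatty acid synthase (Fasn) builds palmitate with NADPH, part of which malic enzyme (Me1) supplies. Elovl6 lengthens palmitate to stearate, and the stearoyl-CoA desaturases Scd1 and Scd2 set a double bond. Insulin is known to raise this programme in liver and fat through SREBP-1c, a product of Srebf1, and Pnpla3, a lipase and acyltransferase of lipid droplets, is a known target of the same factor. Acinar cells spend most of their synthesis on secreted enzymes.

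The promoters show how far the genes share short motifs at their starts. RefSeq windows of GRCm38.p6, from 250 bases before to 50 bases after an annotated start, were found for 7 of the 9 genes, with 10 windows in all. Scd1 and Scd2 had none. Printed here are Srebf1, the regulator, Fasn, a textbook target of its product, and Me1, the gene with the widest range of levels. Capitals mark the NF-Y box CCAAT and the GC box GGGCGG on either strand, so that ATTGG and CCGCCC are their reverse complements. They lie at chr11:60210422-60210721 (Srebf1), chr11:120824498-120824797 (Fasn) and chr9:86695865-86696164 (Me1), all on the minus strand.
Srebf1: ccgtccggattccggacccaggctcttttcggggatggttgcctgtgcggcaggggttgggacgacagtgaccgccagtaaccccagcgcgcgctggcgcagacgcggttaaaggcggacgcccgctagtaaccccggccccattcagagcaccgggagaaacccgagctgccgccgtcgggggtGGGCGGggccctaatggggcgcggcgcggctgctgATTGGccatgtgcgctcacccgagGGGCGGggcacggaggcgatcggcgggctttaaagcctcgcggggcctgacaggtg
Fasn: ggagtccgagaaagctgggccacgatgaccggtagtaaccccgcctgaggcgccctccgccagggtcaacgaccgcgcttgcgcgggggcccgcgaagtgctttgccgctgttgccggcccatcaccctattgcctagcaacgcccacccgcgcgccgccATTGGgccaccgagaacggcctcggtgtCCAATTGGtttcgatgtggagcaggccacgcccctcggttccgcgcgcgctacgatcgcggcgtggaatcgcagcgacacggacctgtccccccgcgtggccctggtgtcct
Me1: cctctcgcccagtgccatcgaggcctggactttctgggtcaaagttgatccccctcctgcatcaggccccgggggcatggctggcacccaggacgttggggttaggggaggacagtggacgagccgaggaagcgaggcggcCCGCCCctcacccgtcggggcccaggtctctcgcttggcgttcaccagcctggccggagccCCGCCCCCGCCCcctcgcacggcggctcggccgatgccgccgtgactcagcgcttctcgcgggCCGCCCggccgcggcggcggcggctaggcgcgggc
The Fasn window holds CCAAT 3 times and no GC box. The printed Me1 window, the first of its 2, holds GGGCGG 4 times and no NF-Y box. The second Me1 window, at chr9:86687228-86687527, holds 1 NF-Y box and no GC box. The printed Srebf1 window, the third of its 3, has 1 NF-Y box and 2 GC boxes. The first Srebf1 window has 1 NF-Y box and no GC box, and the second has 3 GC boxes and no NF-Y box. CCAAT was in 6 of the 10 windows, against 37.4% of all 32851 windows, and GGGCGG in 5 of the 10, against 35.7%. The sterol regulatory element TCACCCCAC, which SREBP proteins are known to bind, was in 0 of the 10 and in 0.551% of all windows. With 1 free base (TCACNCCAC) the count was also 0 of 10, against 1.24%. The E-box CACGTG and the TATA box TATAAA were in 0 of the 10 as well, against 7.15% and 13.6% of all windows. Both strands were searched for every motif. No match says only that these letters are not in this window.

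Total gene counts per library were similar between groups, while tissue content was not. Gene counts ran from 11718559 to 19024351 per library. The 26 digestive enzyme genes, the defining product of acinar cells, took 60.4% to 79.8% of gene counts in 9 libraries and 16.1% in WT-2404. Its TMM factor, which scales the library size so that most genes match between libraries, was 3.53, the highest of all, against 0.596 in KO-2126, the lowest. WT-2404 is also the library whose label gives another RNA protocol than the other 9, naming a micro-scale column kit and no library kit. Insr, the targeted gene, was at 21.0 to 40.5 CPM (counts-per-million of the scaled library) in WT, at 28.2 to 44.2 CPM in Het and at 22.7 to 35.4 CPM in KO libraries. Reads over a whole gene in whole tissue do not show whether an exon was removed in acinar cells, so these values check no label. After scaling, a gene with 3 counts stood at a mean of 0.133 CPM in WT, 0.242 in Het and 0.255 in KO libraries. At an equal CPM, a gene thus had fewer counts on average in Het and KO than in WT.

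All 9 genes were counted in every library, but at levels far apart. Per kilobase of merged exons, the mean level over the 10 libraries was 12.8 CPM per kb for Acly, 8.11 for Scd2, 7.88 for Scd1 and 4.43 for Srebf1. Fasn and Me1 followed at 2.76 CPM per kb each, and Elovl6 (0.376), Acaca (0.300) and Pnpla3 (0.255) were lowest. Merged exons include every annotated isoform, from 1548 bases for Pnpla3 to 17074 for Acaca, and which isoforms these libraries held was not tested. The genes that carry out the first steps varied least between mice, with a coefficient of variation in CPM of 12.5% for Acly, 13.2% for Acaca and 15.0% for Fasn, and Srebf1 had 13.01%. Scd2 (28.7%), Scd1 (31.5%), Elovl6 (49.0%), Me1 (68.6%) and Pnpla3 (73.2%) varied more.

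**Figure D1:**
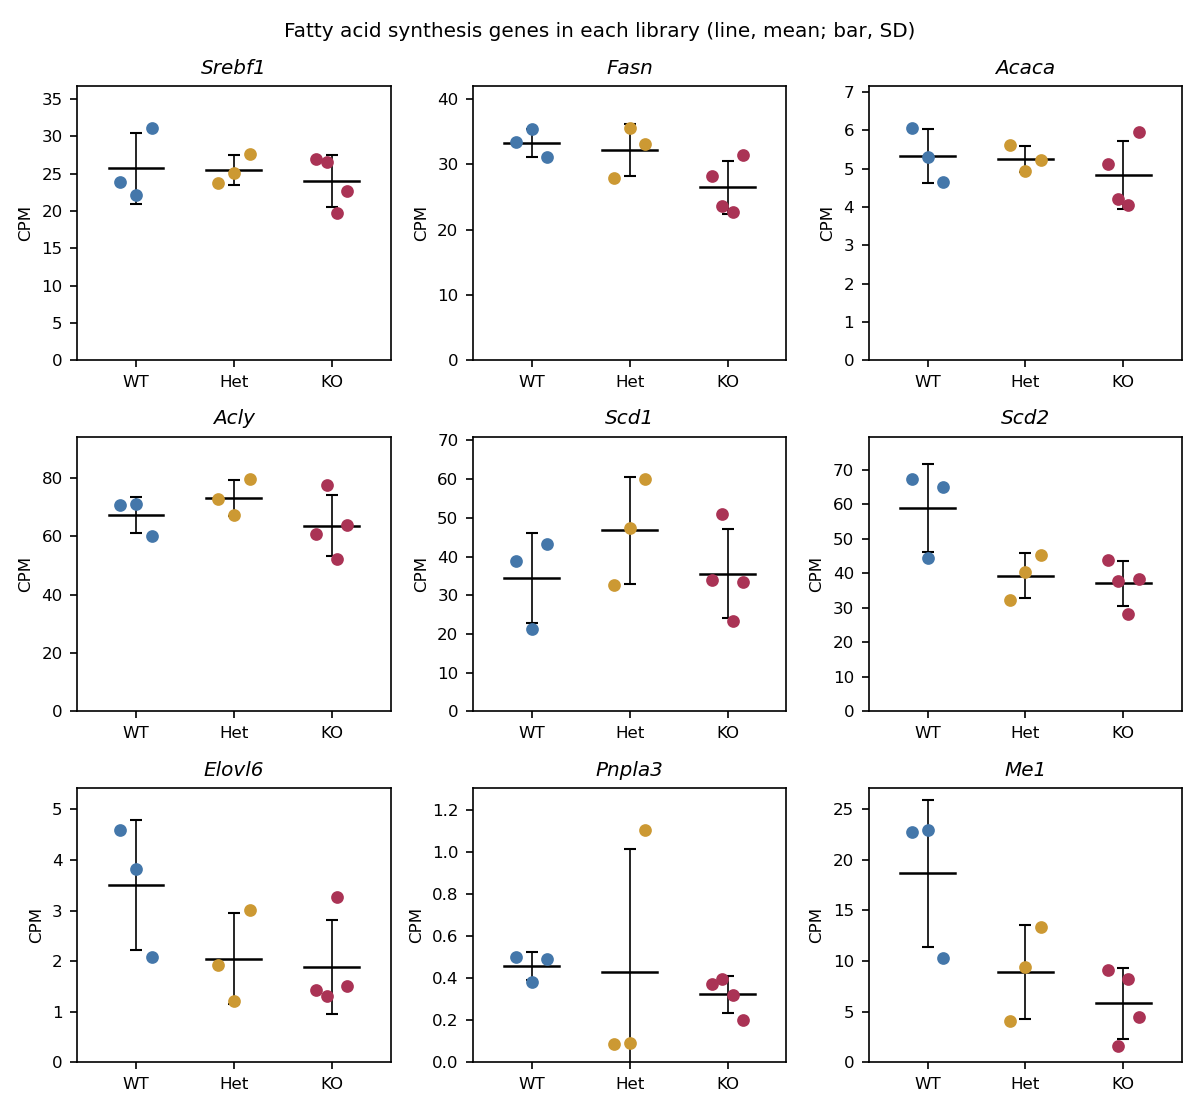
CPM of scaled library size (y axes, linear and from 0) of the 9 genes in each of the 10 libraries (points), by group (x axes), with the mean and SD of each group; the Pnpla3 SD bar of the Het group would run below 0 and ends at the axis. The WT points of Me1 (10.3 to 22.96) and Scd2 (44.3 to 67.4) lie above every KO point, and the groups overlap in the other 7 panels.

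Between KO and WT, 0 of the 8 genes that passed the filter on low counts were called by edgeR's quasi-likelihood test at an adjusted p (Benjamini-Hochberg, over all tested genes) under 0.05, as was the case for 0% of the 13688 genes tested. At an unadjusted p under 0.05, 2 of the 8 were lower in KO (Me1 and Scd2), against 13.9% of all genes, and 0 of the 8 were higher, against 9.6%. Libraries of both groups did not overlap, with KO lower, for the same 2 genes, against 9.17% of all. The log2 fold change was negative for 7 of the 8, against 48.2% of all genes, and its median was -0.24, against 0.03 over all genes. Over all genes, 3221 had an unadjusted p under 0.05, and the smallest adjusted p was 0.116. DESeq2 called 1009 genes, among them Scd2 and Me1 with KO lower (2 of 8, against 5.22% of all genes called lower). The limma-voom fit with sample weights called 0 genes, with 3964 at an unadjusted p under 0.05. In bulk tissue, fewer cells of a type and less RNA per cell cannot be told apart, and this holds for every value given here.

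Srebf1, the regulator, lies on chr11:60199089-60222581 (GRCm38, minus strand) and overlaps Rai1 on the other strand, so its reads are uncertain if strand was not used in counting. Its level was 31.1 CPM in WT-2067, 23.8 in WT-2404 and 22.1 in WT-1860. The Het libraries had 23.8 (Het-2066), 25.1 (Het-1770) and 27.6 (Het-2042), and the KO libraries 27.0 (KO-2079), 26.6 (KO-2070), 19.7 (KO-2124) and 22.7 CPM (KO-2126). The ranges overlapped, with WT-2067 highest and KO-2124 lowest of all libraries. The log2 difference of KO from WT was -0.10 (SE 0.18, 95% interval -0.49 to 0.29, edgeR adjusted p = 0.766), and of Het from WT it was -0.01 (SE 0.19). The table counts the gene as a whole and does not separate SREBP-1a from SREBP-1c.

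Acly and Me1 feed the pathway, one with acetyl-CoA and the other with NADPH. Acly, on chr11:100476353-100528000, stood at 70.8, 71.2 and 60.1 CPM in WT-2404, WT-1860 and WT-2067. It stood at 72.8, 67.5 and 79.8 in Het-2066, Het-1770 and Het-2042, and at 60.9, 77.6, 52.4 and 64.0 in KO-2079, KO-2070, KO-2124 and KO-2126. These ranges overlap, and the log2 difference of KO from WT was -0.08 (SE 0.20, 95% interval -0.51 to 0.35, edgeR adjusted p = 0.831).

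Me1, on chr9:86581371-86695953 of the minus strand, spread 14.5-fold in CPM, and its counts ran from 12 in KO-2070 to 1360 in WT-2404. Its level was 10.3 CPM in WT-2067, 22.7 in WT-2404 and 22.96 in WT-1860. The Het libraries had 4.12 (Het-2066), 9.41 (Het-1770) and 13.4 CPM (Het-2042). In KO it was 9.09 (KO-2079), 1.58 (KO-2070), 8.20 (KO-2124) and 4.44 CPM (KO-2126). All 4 KO libraries were below all 3 WT libraries, while the Het libraries reached from the KO range into the WT range. The mean was 5.83 ± 3.47 CPM in KO (SD, n = 4) against 18.7 ± 7.24 in WT (SD, n = 3), 3.101-fold apart in the fit, with a log2 difference of -1.63 (SE 0.51, 95% interval -2.77 to -0.50, edgeR adjusted p = 0.125). The exact permutation test of its log2 CPM over mice (two-sided) gave p = 0.0571, or 0.6 adjusted over the 27 tests of 9 genes in 3 comparisons. The smallest p this design allows is 0.0286. Without WT-2067, the lowest of the WT libraries, the adjusted p of Me1 was 0.0488 with a log2 difference of -1.91. That fit called 1933 genes, 7.42% of all being called lower, and Me1 was the 1 gene of the group called. Without WT-2404 the difference was -1.44 (edgeR adjusted p = 0.513). The summed ductal markers were also higher in every WT library (802 to 945 CPM) than in any KO library (427 to 681). With their mean log2 level as a covariate, chosen after the data were seen, the Me1 difference changed sign, to 0.28 (SE 0.45, edgeR adjusted p = 1). That level was 5.86 to 6.24 in WT and 4.57 to 5.60 in KO libraries, so genotype and ductal level cannot be told apart in this fit. Over all genes it left 189 at an edgeR unadjusted p under 0.05, against 3221 in the reported fit. Me1 overlaps A330041J22Rik on the other strand.

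Acaca and Fasn carry out the committed step and the synthesis itself. Fasn, on chr11:120805846-120824547, had 33.4, 35.4 and 31.1 CPM in WT-2404, WT-1860 and WT-2067. The Het values were 27.9, 35.6 and 33.2 CPM (Het-2066, Het-1770 and Het-2042), and the KO values 28.2, 23.6, 22.8 and 31.4 CPM (KO-2079, KO-2070, KO-2124 and KO-2126). KO-2126 alone of the KO libraries reached the WT range, lying above WT-2067. The log2 difference of KO from WT was -0.33 (SE 0.18, 95% interval -0.71 to 0.05, edgeR adjusted p = 0.263). Acaca, on chr11:84129672-84401651, was low, with 32 to 363 counts. Its level ran from 4.65 to 6.06 CPM in WT (n = 3), 4.94 to 5.61 in Het (n = 3) and 4.05 to 5.96 in KO (n = 4). The groups overlapped over most of their range, with a log2 difference of KO from WT of -0.15 (SE 0.22, edgeR adjusted p = 0.701).

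Elovl6, Scd1 and Scd2 lengthen and desaturate the product. Elovl6, on chr3:129532355-129638495, was thinly counted, with 10 to 275 counts. It stood at 4.59, 3.83 and 2.08 CPM in WT-2404, WT-1860 and WT-2067. The Het libraries had 1.93, 1.21 and 3.01 CPM (Het-2066, Het-1770 and Het-2042), and the KO libraries 1.42, 1.32, 3.27 and 1.51 (KO-2079, KO-2070, KO-2124 and KO-2126). KO-2124 lay inside the WT range, and the other 3 KO libraries lay below it. The log2 difference of KO from WT was -0.87 (SE 0.43, 95% interval -1.80 to 0.07, edgeR adjusted p = 0.240), and single libraries moved it. Without KO-2124 it was -1.32 (edgeR adjusted p = 0.0992), without WT-2404 it was -0.60 (edgeR adjusted p = 0.685), and with the digestive enzyme share as a covariate it was -0.33 (edgeR adjusted p = 0.976).

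Scd1 and Scd2, neighbours on chromosome 19 (chr19:44394455-44407879 and chr19:44293674-44306864), are close paralogs, and reads that fit both could be split or lost in counting. Scd2 was 67.4, 44.3 and 65.2 CPM in WT-2404, WT-1860 and WT-2067. It was 32.3, 40.5 and 45.3 CPM in Het-2066, Het-1770 and Het-2042, and 43.8, 37.7, 28.3 and 38.5 CPM in KO-2079, KO-2070, KO-2124 and KO-2126. Every KO library was below every WT library, though KO-2079 and WT-1860 nearly touch, and Het-2042 lay just above WT-1860. The log2 difference of KO from WT was -0.67 (SE 0.22, 95% interval -1.15 to -0.19, edgeR adjusted p = 0.126), a 1.59-fold lower level. Its exact permutation p over mice was 0.0286 (two-sided), the smallest that 4 against 3 libraries allow, and 0.6 after adjustment over the 27 tests. Without WT-2404 the difference was -0.57 (edgeR adjusted p = 0.513).

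Scd1 did not share that order. Its level was 38.9, 21.3 and 43.2 CPM in WT-2404, WT-1860 and WT-2067. The Het libraries had 32.7, 47.4 and 60.1 CPM (Het-2066, Het-1770 and Het-2042), and the KO libraries 34.1, 51.1, 23.5 and 33.5 CPM (KO-2079, KO-2070, KO-2124 and KO-2126). Each group spanned a difference of 1.84-fold or more between its own mice, and the groups overlapped throughout. The log2 difference of KO from WT was 0.04 (SE 0.31, 95% interval -0.63 to 0.71, edgeR adjusted p = 0.95). Its sign turned in 6 of 21 alternative settings. Over the 10 libraries the log2 CPM of Scd1 and Scd2 had a Pearson r of 0.34, and of 0.84 once each group's mean was removed.

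Pnpla3, on chr15:84167837-84187236, did not pass the filter. It had 1 to 30 counts per library, which is 0.383 to 0.501 CPM in WT (n = 3), 0.0877 to 1.10 in Het (n = 3) and 0.202 to 0.395 in KO (n = 4). At or below the level of 3 counts were Het-2066 and Het-1770 (1 count each), KO-2070 (3 counts) and KO-2126 (2 counts). Het-2042 was the highest of all, so a difference was not detectable at this depth.

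**Figure D2:**
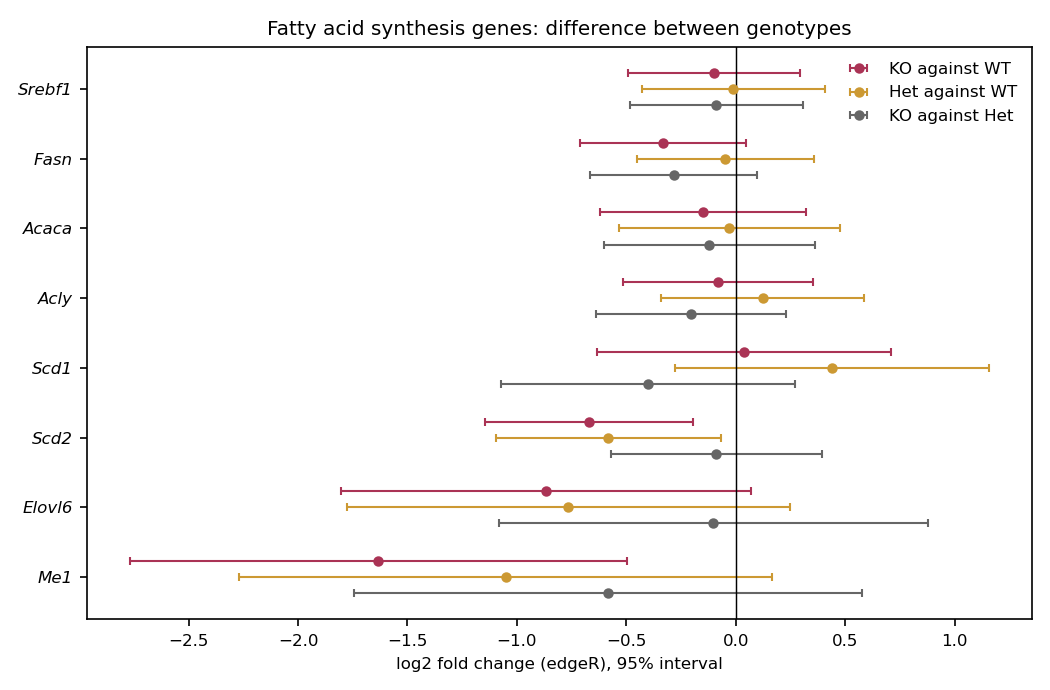
Log2 fold change (x axis) of the 8 tested genes (rows) in each comparison, with points for the edgeR estimate and bars for its 95% interval. The KO against WT intervals of Me1 (-2.77 to -0.50) and Scd2 (-1.15 to -0.19) and the Het against WT interval of Scd2 (-1.10 to -0.07) do not reach 0, and no gene passed the adjusted threshold in any comparison.

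Het against WT, which shares the WT libraries with the previous comparison, gave 0 of 8 genes at an edgeR adjusted p under 0.05, against 0% of all genes. There were 2714 genes at an unadjusted p under 0.05, DESeq2 called 326 genes and limma-voom 0. Of the 8, 0 were among the DESeq2 calls, against 2.38% of all genes. At an unadjusted p under 0.05, 1 of the 8 was lower (Scd2), against 11.6% of all genes. The log2 fold change was negative for 6 of the 8, against 49.7% of all, with a median of -0.04 against 0.0047. Scd2 differed by -0.58 (SE 0.24, edgeR adjusted p = 0.215), Me1 by -1.05 (SE 0.55, edgeR adjusted p = 0.298) and Elovl6 by -0.77 (SE 0.47). Scd1 was higher on average in Het, by 0.44 (SE 0.33, 95% interval -0.28 to 1.16, edgeR adjusted p = 0.448), and Acly by 0.12 (SE 0.21). No exact permutation test of 3 against 3 libraries can go below p = 0.1.

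KO against Het is the direct test of 2 against 1 floxed allele. Here too 0 of 8 genes passed (0% of all genes), with 103 genes at an unadjusted p under 0.05 and 0 calls by DESeq2 and by limma-voom. Of the 8, 0 were lower at an unadjusted p under 0.05, against 0.351% of all genes. All 8 log2 fold changes were negative, against 48.6% of all genes, from -0.09 (Scd2 and Srebf1) to -0.58 (Me1), with a median of -0.16 against 0.0077. Every 95% interval included 0. Fasn differed by -0.28 (SE 0.18, 95% interval -0.66 to 0.10) and Scd1 by -0.40 (SE 0.31, 95% interval -1.07 to 0.27), both at an edgeR adjusted p of 1. The count of negative values was 6 of 8 without Het-2042 and 5 of 8 when libraries were scaled by total counts alone. That scaling moved the median of all genes to 0.17, and 7 of the 8 were below that median.

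The scaling sets the size of every difference from WT. With total counts alone, the median of all tested genes was -1.17 for KO and -1.36 for Het, each against WT. Under that scaling 4 of the 8 genes were called lower in KO (Fasn, Scd2, Elovl6 and Me1), against 20.7% of all genes, and 2 in Het (Scd2 and Me1), against 22.8%. Relative to the median of all genes, Me1 was then at -1.69 in KO against WT, Elovl6 at -0.93, Scd2 at -0.80 and Fasn at -0.41. Acaca was at -0.30, Acly at -0.21, Scd1 at -0.11 and Srebf1 at -0.10 on the same relative scale. The 5 lowest genes (Me1, Elovl6, Scd2, Fasn and Acaca) stood in the same order as in the reported fit.

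**Figure D3:**
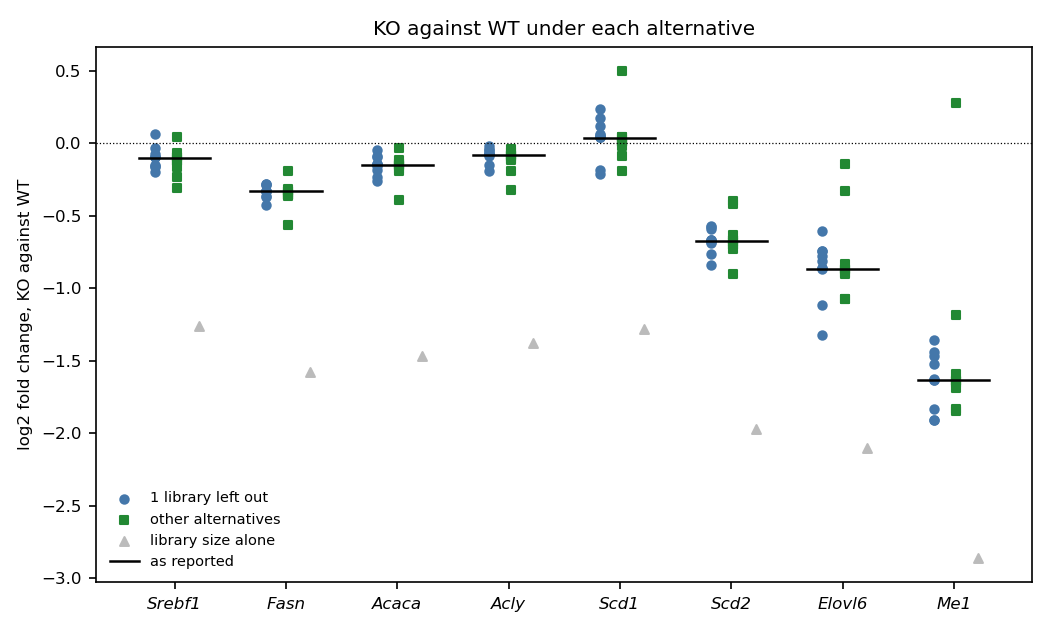
Log2 fold change of KO against WT (y axis) of the 8 tested genes (x axis) in the reported fit (lines), with 1 library left out (circles), under other alternatives (squares) and with library size alone (triangles). The triangle lies lowest for each gene, Scd2 stays below 0 throughout (-1.97 to -0.40), and Me1 is above 0 in a single setting, 0.28 with the ductal marker level in the fit.

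Other genes of fat metabolism were described from lists by role. None of the genes on the 7 lists passed the edgeR threshold in any comparison. Over all tested genes in KO against WT, 48.2% had a negative log2 fold change, and 13.9% were lower and 9.6% higher at an unadjusted p under 0.05. Fatty acid oxidation was the list with the most uniform sign. All 15 tested genes had a positive KO against WT log2 fold change (median 0.61), and 10 of them had an unadjusted p under 0.05, against 9.6% of all genes. Acadm, the medium-chain acyl-CoA dehydrogenase, stood at 30.1 ± 4.41 CPM in KO (SD, n = 4) against 16.8 ± 3.78 in WT (SD, n = 3), with a log2 difference of 0.84 (SE 0.20, edgeR adjusted p = 0.116). Hadhb, a subunit of the trifunctional protein, differed by 0.81 (SE 0.24) and Acaa2, a mitochondrial thiolase, by 0.77 (SE 0.23). In Het against WT the same list had 15 of 15 positive values (median 0.53), and in KO against Het 12 of 15 (median 0.16). With total counts alone 12 of 15 KO against WT values turned negative (median -0.49), and 14 of 15 were above the median of all genes.

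Cholesterol synthesis and uptake, the branch driven by Srebf2, leaned the other way. The KO against WT value was negative for 13 of 17 tested genes (median -0.33), against 48.2% of all genes. At an unadjusted p under 0.05, 6 were lower, against 13.9% of all, and 1 was higher, against 9.6%. Hmgcs1, which makes the precursor of mevalonate, stood at 10.9 ± 0.978 CPM in KO (SD, n = 4) against 17.3 ± 2.50 in WT (SD, n = 3), with a log2 difference of -0.66 (SE 0.16, edgeR adjusted p = 0.116). Cyp51, a sterol demethylase that acts late in the pathway, differed by -1.07 (SE 0.38). Srebf2 itself differed by -0.49 (SE 0.16, edgeR adjusted p = 0.127), while 13 of the 15 regulators tested had positive values (median 0.38). Mlx, the partner of ChREBP, differed by 0.63 (SE 0.20), and Usf2, an E-box factor, by 0.45 (SE 0.19).

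The other sources of NADPH were split. Pgd and G6pdx, enzymes of the pentose phosphate pathway, differed by -1.10 (SE 0.26, edgeR adjusted p = 0.116) and -0.90 (SE 0.27, edgeR adjusted p = 0.121), with KO libraries below all WT libraries for both. Mthfd1, of folate metabolism, differed by 0.99 (SE 0.29, edgeR adjusted p = 0.119). Of the 9 tested genes of this list, 5 had positive and 4 negative values (median 0.45), with 3 of each sign at an unadjusted p under 0.05 (9.6% of all genes were higher and 13.9% lower by that rule). Like Me1, both pentose phosphate genes are known targets of NRF2, whose part in these values was not tested.

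The remaining lists were mixed. Of 18 other genes of synthesis, elongation and desaturation, 8 had positive and 10 negative values (median -0.11), among them Hsd17b12 of the elongation cycle at -0.61 (SE 0.20), the acyl-CoA synthetase Acsl1 at 0.95 (SE 0.33) and Mcat of mitochondrial synthesis at 0.76 (SE 0.27). Triglyceride synthesis had 5 positive and 4 negative (median 0.18). Gpam, which starts glycerolipid synthesis, was 27.2 ± 3.17 CPM in KO (SD, n = 4) against 10.01 ± 6.39 in WT (SD, n = 3), a log2 difference of 1.46 (SE 0.38, edgeR adjusted p = 0.116). Dgat2, which adds the last fatty acid, differed by -0.76 (SE 0.32), and Agpat3 by 0.40 (SE 0.18). Lipolysis had 5 positive and 1 negative (median 0.27), the negative one being the lysosomal lipase Lipa at -1.25 (SE 0.38), with Mgll at 0.84 (SE 0.27) and Lipe at 0.42 (SE 0.23).

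**Figure D4:**
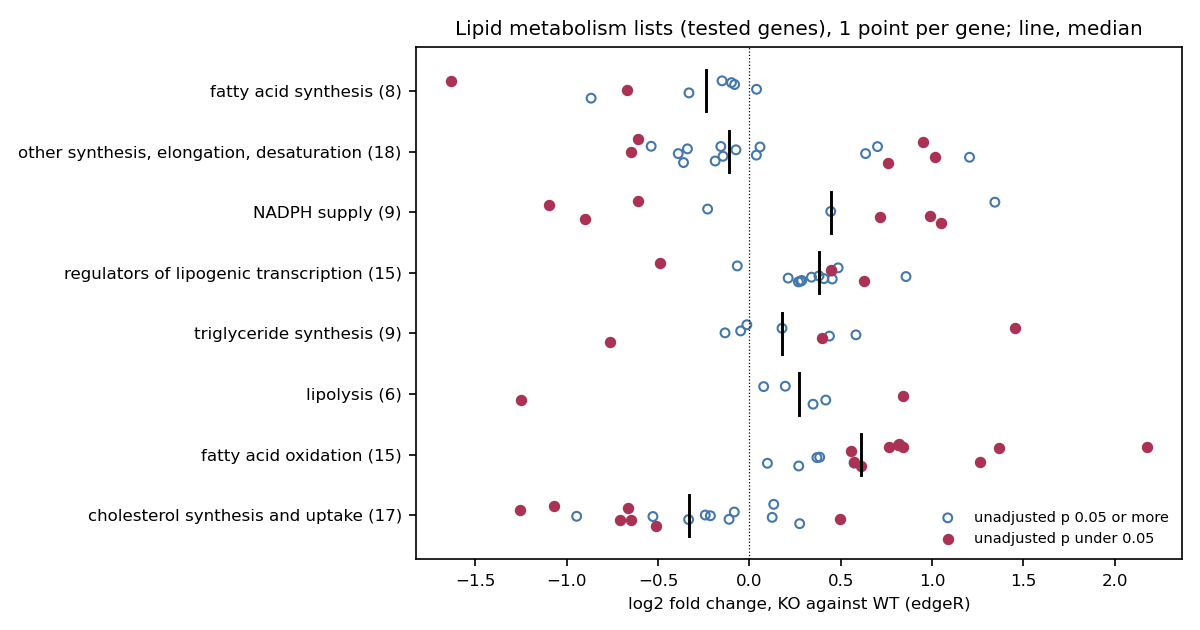
Log2 fold change of KO against WT (x axis) of each tested gene (points, filled where the unadjusted p is under 0.05) of the fatty acid synthesis genes and the 7 related lists (rows, with the number tested), with a line at each list's median. Fatty acid oxidation lies wholly above 0 (median 0.61), cholesterol synthesis mostly below (median -0.33), and the fatty acid synthesis genes have a median of -0.24.

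Markers of other cell types differed between the groups in the same samples. The summed level of the 9 ductal markers, all found in the table, was 802 to 945 CPM in WT, 426 to 750 in Het and 427 to 681 in KO libraries. Of these 9, 7 had a negative and 2 a positive log2 fold change in KO against WT, and likewise in Het against WT. Muc1, among the most abundant of them, had a mean of 164 CPM in WT, 179 in Het and 172 in KO. The 8 fibroblast markers summed to 1285 to 4456 CPM in WT, 521 to 1017 in Het and 474 to 1162 in KO. The 9 macrophage markers summed to 460 to 1891 CPM in WT, 247 to 375 in Het and 144 to 532 in KO. For ducts and fibroblasts no KO or Het library reached the WT range. The 12 adipocyte markers, led by Fabp4, which other cells also express, Plin4 and Cfd, summed to 46.6 to 59.1 CPM in WT, 79.9 to 102 in Het and 55.5 to 99.7 in KO. In WT 1 and in KO 2 of these 12 markers were at 0 in a library, and in Het 0. Fabp4 made up 32.8 of the mean 52.8 CPM in WT, and the summed means were 74.5 CPM in KO and 87.9 in Het. On the mean log2 level of the 12 markers the order was the same, at 0.43 in WT, 0.64 in KO and 1.21 in Het. The WT libraries were spread widely on that level. WT-2067 (1.17) lay above all KO libraries (0.43 to 0.86) and above Het-2066 and Het-1770. WT-2404 (0.17) and WT-1860 (-0.06) lay below every KO and Het library. Of the 11 adipocyte markers tested, 8 had a positive and 3 a negative log2 fold change in KO against WT. In Het against WT, 9 were positive and 2 negative. Pparg, the master regulator of fat cells, went against most of the list. Its level was higher in every WT library (5.19 to 5.88 CPM) than in any Het (1.84 to 4.72) or KO library (1.05 to 4.26).

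Some of the genes varied with these levels. Me1 followed the mean log2 level of the ductal markers over the 10 libraries, with a Pearson r of 0.94 (permutation p = 2.0e-05, adjusted p = 0.00054 over 27 relations) and a Spearman rho of 0.95 (permutation p = 0.0001, adjusted p = 0.0027). Without the 2 libraries farthest in ductal level, KO-2070 and KO-2126, r was 0.94, and with group means removed it was 0.89. Me1 had an r of 0.87 with both the fibroblast and the macrophage level (permutation adjusted p = 0.0143 each; rho 0.88 and 0.77, adjusted p = 0.0239 and 0.0678). Those r values were 0.91 and 0.85 without the 2 farthest libraries, and 0.79 each with group means removed. These 27 relations were chosen after the data had been seen. Scd2 had an r of 0.74 with the ductal level (permutation p = 0.0143, adjusted p = 0.0766) and a rho of 0.85 (permutation p = 0.00281, adjusted p = 0.0253), but r was 0.83 without the 2 farthest libraries and 0.34 with group means removed. With the fibroblast level Scd2 had an r of 0.72 (permutation p = 0.0199, adjusted p = 0.0766) and a rho of 0.83 (permutation p = 0.00497, adjusted p = 0.0335), and r was 0.56 without the 2 farthest libraries and 0.30 with group means removed. Elovl6 had an r of 0.77 with the macrophage level (permutation p = 0.00488, adjusted p = 0.0329) and a rho of 0.73 (permutation p = 0.0194, adjusted p = 0.0874), and r was 0.58 without the 2 farthest libraries and 0.61 with group means removed. With the ductal level as a covariate, also chosen after the data were seen, the KO against WT difference was 0.28 (SE 0.45) for Me1, -0.41 for Scd2 and -0.14 for Elovl6. Because the ductal level did not overlap between WT and KO libraries, that fit cannot tell genotype from cell content. The part of other cell types in these differences was not tested.

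Scd1 and Srebf1 instead leaned toward the adipocyte level. In a family of 18 relations, with the adipocyte level and the digestive enzyme share, Scd1 had an r of 0.76 with the adipocyte level (permutation p = 0.0106, adjusted p = 0.0952) and a rho of 0.65 (permutation p = 0.0488, adjusted p = 0.293). Its r was 0.40 without Het-2042 and WT-1860, the 2 libraries farthest in adipocyte level, and 0.69 with group means removed. For Srebf1 r was 0.65 (permutation p = 0.0426, adjusted p = 0.255) and rho 0.72 (permutation p = 0.0229, adjusted p = 0.206), with an r of 0.67 without the same 2 libraries and of 0.79 with group means removed. Neither passed the adjusted threshold. Elovl6 was lower where digestive enzymes took a larger share of counts, with an r of -0.75 (permutation p = 0.0002, adjusted p = 0.0036) and a rho of -0.78 (permutation p = 0.0107, adjusted p = 0.193). The r was -0.78 without WT-2404 and WT-1860 and -0.61 with group means removed.

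**Figure D5:**
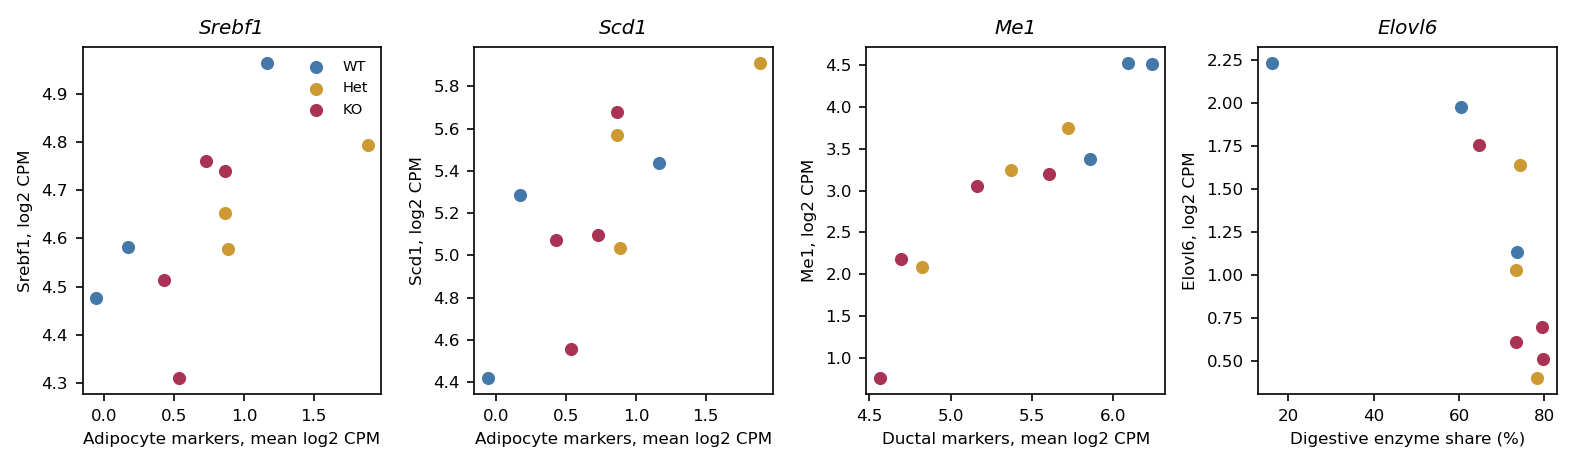
Log2 CPM of a gene (y axes) against a marker level or the digestive enzyme share in percent (x axes) in the 10 libraries (points, coloured by group), for Srebf1 and Scd1 with adipocyte markers, Me1 with ductal markers and Elovl6 with the enzyme share. Me1 is higher where the ductal level is higher (r of 0.94), and WT-2404 stands alone at an enzyme share of 16.1%.

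The genes did not move as 1 block across mice. Over the 28 pairs of the 8 tested genes, the Pearson r of log2 CPM ran from -0.37 to 0.74, with a median of 0.29. The highest was that of Srebf1 with Scd1 (r of 0.74, permutation p = 0.0148, adjusted p = 0.268 over 28 pairs; rho of 0.81, permutation p = 0.00746, adjusted p = 0.104), and it was 0.78 without the 2 libraries farthest in Srebf1. No pair passed after adjustment.

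For each member, the 3 genes with the most similar profile over the 10 libraries were taken from all tested genes other than the members. Of the 13688 tested genes, 18 are on the list of other synthesis, elongation and desaturation genes. Neighbours from outside the pathway are therefore what any pick would mostly give, and they say nothing about the pathway. Closest to Me1 were Smpd3 (r of 0.99), Abcc3 (0.99) and Golm1 (0.98), and to Scd2 Itgb4, Glis2 and Cldn6 (0.92, 0.92 and 0.91). Closest to Scd1 were Orai3 (0.95), Fam20c (0.93) and Fads1 (0.92), a fatty acid desaturase on that list. Srebf1 was nearest to Tctn2 (0.90), Zfp750 (0.89) and Lurap1 (0.87). Fasn was nearest to Rnf217 (0.94), Tmx2 (0.92) and Cystm1 (0.91). For Elovl6 the nearest were Dennd5a, Mfsd2b and Fam46a (0.94 each). Acaca was nearest to Cptp (0.92), Efcab14 (0.90) and Rcor1 (0.90), and Acly to Ccnd2 (0.91), Ttc28 (0.86) and Jkamp (0.85). These r values are the highest among all tested genes and carry no test.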

How the data were processed

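Gene counts of 10 mice were compared. Raw counts by gene symbol make up the deposited table, and per the submitters' processing notes DRAGEN, STAR and Cufflinks were named with mm10. Their roles, the annotation and the use of strand in counting are not given in the sources used here. All 10 columns matched a sample by genotype and mouse number (0 left over), and the 2 rows that name no gene (unassigned reads without a feature were 2.59% to 8.71% of counts) were left out. The 9 genes and all lists were chosen with earlier results of these data known. Not reported here are a part of the genotype that all groups share and 1 gene of the lists.

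Of 24421 genes, 13688 passed edgeR's filterByExpr (minimum count 10), 8 of the 9 members among them. Counts were scaled with TMM and tested with edgeR 4.0.16 (quasi-likelihood, robust, 1 fit over 10 libraries, Benjamini-Hochberg over all tested genes, threshold 0.05), a script first tested on simulated data. CPM refers to scaled library sizes, with a prior count of 2 on the log2 scale. Lengths and positions came from merged GENCODE exons of GRCm38, and promoter windows from RefSeq. Single values were compared by exact permutation over mice (two-sided), and relations by 100000 permutations. DESeq2 1.42.0, limma 3.58.1 (voom), other scalings and filters, covariates and leaving out each library were alternatives. Of each list, up to 3 genes with the smallest unadjusted p in KO against WT were named, and for each member the 3 genes with the highest r. Libraries of a group differed by more than sampling noise (chi-square per degree of freedom 24.6 or more). The labels call them separate mice. Intervals are for the difference between groups and rest on the spread between these mice. At this depth a gene with 3 counts stands at 0.0501 to 0.395 CPM.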

Additional observations from a re-analysis of the deposited data

Results flagged for a closer look

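Elovl6 stood at 3.27 CPM in KO-2124, far from the other 3 KO libraries, which lay between 1.32 and 1.51 CPM. The gap to the nearest of them was 0.90 of the group's range, above Dixon's 95% critical value for 4 libraries. Of the 11 measures given this rule it was the 1 flagged, and chance alone marks about 1 in 20 groups. This does not make it the only value far from its group. Insr in KO-2079, at 22.7 CPM, also lay apart from the other KO libraries, at 33.3 to 35.4 CPM, and its gap passes the same critical value. In the groups of 3 libraries, Me1 in WT-2067 stood at 10.3 CPM, against 22.7 in WT-2404 and 22.96 in WT-1860. Pnpla3 in Het-2042 stood at 1.10 CPM, against 0.0877 in Het-2066 and 0.0932 in Het-1770.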

How the results depend on the processing

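Depth limits Pnpla3 (1 to 30 counts) and Elovl6 most, and leaving a WT library out leaves 2 in that group. No paired analysis was possible because no replicate number is shared between groups. Across 10 fits that each leave out a library and 11 other settings, the log2 differences of Fasn, Acaca, Acly, Scd2 and Elovl6 in KO against WT kept their negative sign, and for KO against Het those of Fasn, Acaca, Acly, Scd1 and Me1 did. The largest difference, that of Me1 from WT, turned its sign in 1 of the 21 settings, with the ductal marker level as covariate. The cause of these changes was not tested.

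Called genes in KO against WT were 0 in the reported fit, 1009 (2 members) with DESeq2, 2835 (4 members) with total counts alone, and 0 to 1933 (0 to 1 members) when a library was left out, the highest without WT-2067. In Het against WT they were 0, 326 with DESeq2, 3125 (2 members) with total counts alone, and 0 to 1158 without a library, again highest without WT-2067. The members' median was -1.52 for KO and -1.45 for Het, each against WT, with total counts alone, and -0.48 and -0.34 with counts outside the digestive enzymes as library size, settings that also moved the median of all genes (-1.17, -1.36, -0.19 and -0.29).

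Signs turned as follows. In KO against WT, Scd1 was -1.28 with total counts alone, -0.19 with counts outside the enzymes, -0.088 with the adipocyte level and -0.021 with the enzyme share as covariate, and -0.21 to 0.24 without a library. Srebf1 was 0.046 with limma-voom and -0.20 to 0.067 without a library, and Me1 0.28 with the ductal covariate, against -1.63 as reported. In Het against WT, total counts alone gave -1.27 for Acly and -0.94 for Scd1 (0.44 as reported), counts outside the enzymes -0.18 for Acly, and limma-voom 0.075 for Srebf1. The adipocyte covariate gave 0.020 for Fasn, 0.11 for Acaca and -0.075 for Scd1, and the enzyme share 0.092 for Acaca. The ductal covariate gave 0.011 for Srebf1, 0.052 for Fasn and 0.32 for Me1, the last against -1.05 as reported. Without a library, Acaca ran from -0.11 to 0.092, Srebf1 from -0.11 to 0.15 and Fasn from -0.12 to 0.051. In KO against Het, total counts alone gave 0.037 for Srebf1, 0.028 for Scd2 and 0.17 for Elovl6, and counts outside the enzymes 0.0064 for Elovl6. The adipocyte covariate gave 0.10 for Srebf1 and 0.093 for Scd2, and the ductal covariate 0.11 for Elovl6. Without a library, Elovl6 ran from -0.57 to 0.29 and Scd2 from -0.21 to 0.027.

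On the forward strand alone, TCACCCCAC was in 0.250% of promoter windows, TCACNCCAC in 0.548%, CCAAT in 21.1%, GGGCGG in 23.4% and TATAAA in 8.32%, since 1 of 2 strands was read.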
